A study of Mus musculus with 6 samples.

Results

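A set of 10 genes of the fibroblast growth factor (FGF) and hepatocyte growth factor (HGF) systems were followed in whole mouse corneas, chosen by their symbols: the ligand genes Fgf1, Fgf2, Fgf7, Fgf10 and Hgf, and the receptor genes Fgfr1, Fgfr2, Fgfr3, Fgfr4 and Met. All 10 were found among the 17794 genes of the expression table and all 10 passed the filter on low counts, as did 13838 genes in all. The mice had a dry eye model made with benzalkonium chloride, a preservative of eye drops that injures the epithelium. They were then treated for 10 days with luteolin, a plant flavone (3 libraries), or with vehicle (3 libraries), so both groups carried the benzalkonium chloride injury, and undamaged corneas were not analysed here. For strain, age, route and dose the sources used here give nothing. Whether each library is a different animal is not stated, so every p-value reflects the spread between these samples alone, which may be technical.

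FGFs are secreted or released proteins that bind receptor tyrosine kinases together with heparan sulfate. In the cornea, FGF7 (keratinocyte growth factor), FGF10 and HGF are known as products of stromal cells that act on the overlying epithelium, FGF7 and FGF10 through the epithelial splice form of the receptor encoded by Fgfr2, and HGF through the receptor encoded by Met. FGF1 and FGF2 lack a classical secretion signal and bind several FGF receptors. Wounding of the epithelium is known to change this exchange between stroma and epithelium.

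Each library held 16084855 to 16469699 estimated counts. Log2 CPM correlated across genes (Pearson, genes not being independent replicates) at 0.970 to 0.991 between libraries of one group and 0.901 to 0.919 between groups. The defining marker of the labelled tissue was abundant in both groups: Krt12, the keratin of corneal epithelium, stood at 25832 ± 497 TPM with luteolin and 14187 ± 1944 TPM with vehicle (SD, n = 3 each). CPM denotes counts scaled to library size with TMM factors, and TPM is scaled by gene length, so that levels of different genes are compared in TPM only. A gene was called when its adjusted p in edgeR's quasi-likelihood test was under 0.05.

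Of the 10 genes 5 were called, 2 higher and 3 lower with luteolin. Of all tested genes 58.9% were called, 28.5% higher and 30.4% lower, so a count of 5 is close to the share of the whole table. The ligand genes Fgf7 and Hgf fell, as did the receptor gene Fgfr1, while the receptor genes Fgfr2 and Met rose by smaller factors. Fgf1, Fgf2, Fgf10, Fgfr3 and Fgfr4 did not pass. The median log2 fold change of the 10 was -0.03, beside -0.02 over all tested genes. In CPM, luteolin and vehicle libraries stood wholly apart for 6 of the 10 genes (67.4% of all tested genes), 3 of them higher (33.8%) and 3 lower (33.7%). The 3 higher include Fgfr4, which reached 10 counts only in luteolin libraries.

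**Figure D1:**
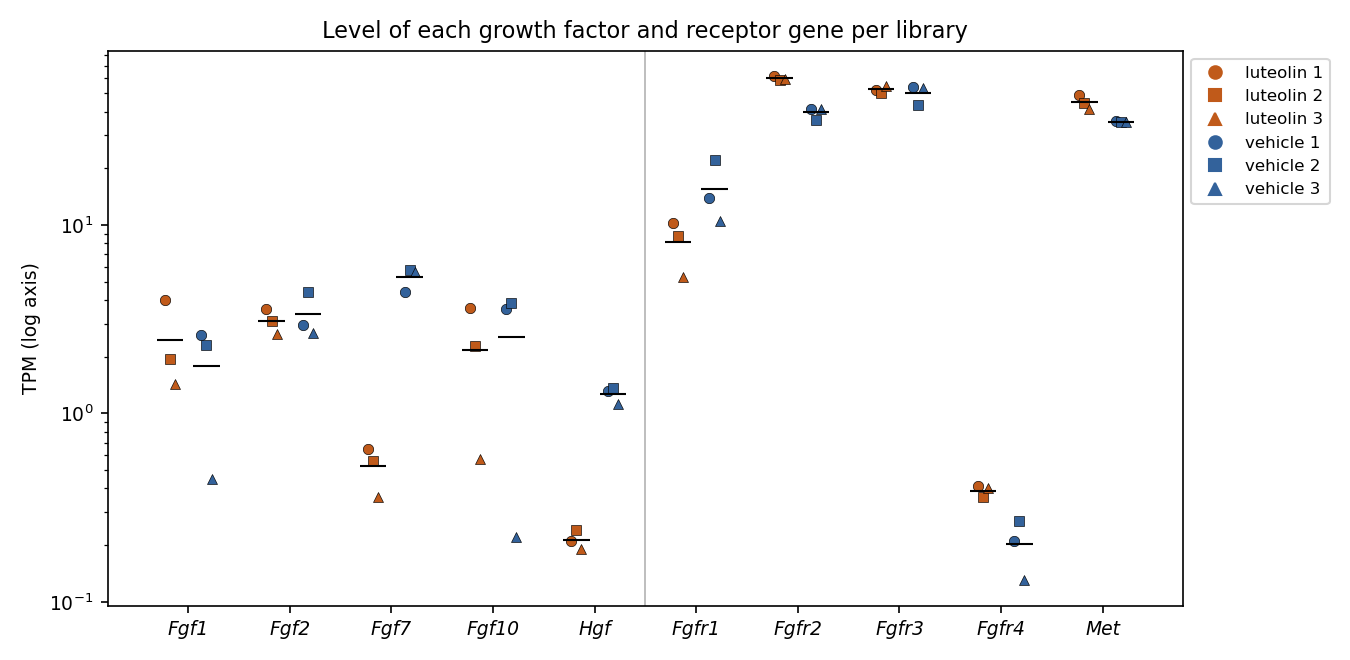
TPM on a log axis for each gene in each library, luteolin left of vehicle, with the marker shape giving the library number and black lines the group means (n = 3). Fgf7 and Hgf of luteolin corneas lie apart below those of vehicle corneas, Fgfr2 and Met lie above them, and Fgf1 and Fgf10 are spread widely within both groups.

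The promoter windows of Fgf7, Hgf, Fgfr2 and Met, the genes whose calls held in every alternative tried, are shown so that the pairs that moved together can be read side by side. Each runs from 250 bases before to 50 bases after an annotated transcript start, 5′ to 3′ on the gene's strand, taken from RefSeq on GRCm38.p6, a later build than the mm9 that the submitters' processing notes name. Capitals mark matches on either strand to any of 6 motifs. The AP-1 letters TGANTCA occur in 7.81% of the 32851 such windows of all genes. The E-box letters CACGTG occur in 7.15% of them, the TATA box letters TATAAA in 13.6% and the GC box letters GGGCGG in 35.7%. The ETS letters CCGGAAGT occur in 3.89% and the C/EBP letters TTGCNNAA in 10.8%. No matches overlapped each other in the windows shown. The Fgf7 window is chr2:126034408-126034707 (plus strand), the Hgf windows are chr5:16553245-16553544 and chr5:16553651-16553950 (plus strand), the Fgfr2 window is chr7:130266759-130267058 (minus strand) and the Met window is chr6:17463707-17464006 (plus strand).
Fgf7: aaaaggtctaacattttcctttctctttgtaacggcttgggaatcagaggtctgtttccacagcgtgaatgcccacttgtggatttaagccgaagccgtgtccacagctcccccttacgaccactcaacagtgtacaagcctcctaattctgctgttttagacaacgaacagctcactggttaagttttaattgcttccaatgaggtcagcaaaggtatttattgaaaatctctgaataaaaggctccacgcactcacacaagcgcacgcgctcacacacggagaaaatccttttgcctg
Hgf, first start: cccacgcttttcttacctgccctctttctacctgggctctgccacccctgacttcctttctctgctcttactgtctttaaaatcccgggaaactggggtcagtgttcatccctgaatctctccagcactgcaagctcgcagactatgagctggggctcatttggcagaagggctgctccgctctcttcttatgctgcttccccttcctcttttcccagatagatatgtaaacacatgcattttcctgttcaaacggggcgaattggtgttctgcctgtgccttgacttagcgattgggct
Hgf, second start: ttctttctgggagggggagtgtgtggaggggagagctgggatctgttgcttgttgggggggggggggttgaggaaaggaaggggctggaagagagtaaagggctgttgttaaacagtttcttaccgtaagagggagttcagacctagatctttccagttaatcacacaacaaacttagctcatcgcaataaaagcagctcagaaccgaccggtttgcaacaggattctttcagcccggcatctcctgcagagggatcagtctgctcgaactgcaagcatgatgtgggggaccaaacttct
Fgfr2: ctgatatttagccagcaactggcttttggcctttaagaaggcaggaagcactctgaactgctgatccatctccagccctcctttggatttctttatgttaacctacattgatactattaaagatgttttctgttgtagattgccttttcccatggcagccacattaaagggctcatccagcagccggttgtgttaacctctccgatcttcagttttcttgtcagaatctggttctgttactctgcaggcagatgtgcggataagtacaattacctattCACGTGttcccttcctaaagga
Met: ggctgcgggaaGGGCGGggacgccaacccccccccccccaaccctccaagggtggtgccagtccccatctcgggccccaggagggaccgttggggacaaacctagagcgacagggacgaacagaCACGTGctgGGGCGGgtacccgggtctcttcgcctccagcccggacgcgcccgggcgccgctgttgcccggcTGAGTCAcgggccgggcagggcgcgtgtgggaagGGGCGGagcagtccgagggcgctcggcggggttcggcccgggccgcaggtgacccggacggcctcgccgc
None of the 6 motifs was found in the Fgf7 window or in either Hgf window. The Fgfr2 window held 1 match, an E-box that starts 29 bases into the transcript. The Met window held an AP-1 match at -54, an E-box at -126 and GC boxes at -239, -117 and -20, and its GC content was 75.7%, against 45.7% in the Fgf7 window, 51.3% in each Hgf window and 43.7% in the Fgfr2 window.

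Among the ligands, Fgf7 fell most. Fgf7 (gene ID 14178) had 0.65, 0.56 and 0.36 TPM in luteolin corneas, against 4.41, 5.79 and 5.66 TPM in vehicle corneas. Every luteolin library was far below every vehicle library, and the luteolin values rest on 16, 14 and 9 counts, the vehicle values on 120, 159 and 156. The mean was 0.840 ± 0.234 CPM with luteolin and 8.54 ± 1.32 CPM with vehicle (SD, n = 3 each), which made Fgf7 10.1-fold lower (log2 fold change -3.33, SE 0.258, edgeR adjusted p = 0.000104). Leaving out any 1 library gave log2 fold changes of -3.52 to -3.13.

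Hgf (gene ID 15234), whose product is the ligand of Met and a mitogen and motogen of epithelial cells, fell as well. Its levels were 0.21, 0.24 and 0.19 TPM in luteolin corneas, against 1.31, 1.37 and 1.12 TPM in vehicle corneas. The groups were well separated and each was narrow, with 10, 14 and 11 counts under luteolin and 80, 79 and 65 counts under vehicle. Hgf was 5.77-fold lower (log2 fold change -2.53, SE 0.238, edgeR adjusted p = 0.000185), and -2.70 to -2.44 with any 1 library left out. On the log2(FPKM + 1) scale, where the pseudocount exceeds the level of Hgf itself, it was 1.67-fold lower and Fgf7 3.55-fold lower, both still called by limma.

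Fgf10 (gene ID 14165), which encodes the closest relative of FGF7 among these ligands, did not follow it. Its levels were 3.65, 2.29 and 0.57 TPM in luteolin corneas, against 3.60, 3.85 and 0.22 TPM in vehicle corneas. Luteolin 3 and vehicle 3 were low and the other 4 libraries high, so the groups overlapped over their whole range. The log2 fold change of -0.23 carried an SE of 0.895 (edgeR adjusted p = 0.837), and its sign turned in several alternatives, with a range of -0.83 to 1.22. A change of Fgf10 was therefore not detectable in either direction with this spread.

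Fgf1 (gene ID 14164), the acidic FGF, had 3.98, 1.95 and 1.44 TPM in luteolin corneas, against 2.61, 2.31 and 0.45 TPM in vehicle corneas. The lowest library was again vehicle 3 and the groups overlapped (log2 fold change 0.46, SE 0.604, edgeR adjusted p = 0.537). Without luteolin 1 the log2 fold change was -0.07, and without vehicle 3 it was -0.01. Fgf2 (gene ID 14173), the basic FGF, had 3.59, 3.08 and 2.63 TPM in luteolin corneas, against 2.96, 4.44 and 2.66 TPM in vehicle corneas. These ranges overlapped almost fully (log2 fold change -0.11, SE 0.210, edgeR adjusted p = 0.661). The counts of Fgf2 had decimals in all 6 libraries, so part of its reads was divided with another gene, and Fgf2 is known to overlap the antisense gene Nudt6, so its level is uncertain. The other 9 genes had whole counts throughout.

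In luteolin corneas the order by mean TPM was Fgf2, Fgf1, Fgf10, Fgf7 and Hgf, and in vehicle corneas it was Fgf7, Fgf2, Fgf10, Fgf1 and Hgf. Libraries of neighbouring genes in these orders overlapped, except between Fgf7 and Hgf with luteolin. Fgf7 made up 5.48%, 7.11% and 7.20% of the summed TPM of the 4 FGF ligands in luteolin corneas, against 32.5%, 35.3% and 63.0% in vehicle corneas. The share was highest in vehicle 3, where Fgf1 and Fgf10 were low. The summed TPM of the 4 ligands was 8.25 ± 3.45 with luteolin and 12.99 ± 3.74 with vehicle (SD, n = 3 each), with ranges that overlapped.

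Fgfr2, Fgfr3, Met and Fgfr1 had higher mean TPM than each ligand gene in both groups, and Fgfr4 was among the lowest of all 10 genes. Fgfr2 (gene ID 14183), which encodes the receptor that FGF7 and FGF10 use on epithelial cells, had 61.84, 58.89 and 59.78 TPM in luteolin corneas, against 41.21, 36.32 and 41.43 TPM in vehicle corneas. The lowest luteolin library stood well above the highest vehicle library. Fgfr2 was 1.51-fold higher (log2 fold change 0.60, SE 0.0685, edgeR adjusted p = 0.000391), with 0.54 to 0.62 when any 1 library was left out. The table counts genes, so the epithelial and mesenchymal splice forms of Fgfr2 cannot be told apart.

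Met (gene ID 17295), which encodes the HGF receptor, had 48.80, 44.71 and 41.28 TPM in luteolin corneas, against 35.69, 35.24 and 35.06 TPM in vehicle corneas. The vehicle libraries were nearly equal and all 3 luteolin libraries exceeded them. Met was 1.27-fold higher (log2 fold change 0.34, SE 0.0678, edgeR adjusted p = 0.00408). With library sizes only in place of TMM factors the change was 0.23 and the median of all tested genes -0.13, and with a correction for gene length it was 0.41 and the median 0.20. Met remained called in every alternative tried, with adjusted p up to 0.0322.

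Fgfr1 (gene ID 14182), a receptor gene known mainly from stromal and other mesenchymal cells, had 10.31, 8.70 and 5.32 TPM in luteolin corneas, against 13.97, 22.23 and 10.56 TPM in vehicle corneas. The groups did not overlap, but the highest luteolin library lay just under the lowest vehicle library, and vehicle 2 stood out. Fgfr1 was 1.91-fold lower (log2 fold change -0.93, SE 0.312, edgeR adjusted p = 0.0345). The call ended without luteolin 2 (-0.999, adjusted p = 0.0731), luteolin 3 (-0.71, adjusted p = 0.0909), vehicle 1 (-1.02, adjusted p = 0.0561) or vehicle 2 (-0.59, adjusted p = 0.0735), and it also ended with robust dispersion (adjusted p = 0.0597).

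Fgfr3 (gene ID 14184), whose product is another receptor of epithelial cells, had 52.27, 50.26 and 54.90 TPM in luteolin corneas, against 53.77, 43.34 and 53.67 TPM in vehicle corneas. The groups overlapped and the difference was small (log2 fold change 0.06, SE 0.0948, edgeR adjusted p = 0.635), with a sign that turned with library sizes only (-0.06) and upper quartile factors (-0.04). Fgfr4 (gene ID 14186) was near the detection limit, at 12, 10 and 12 counts in luteolin corneas, against 7, 8 and 4 counts in vehicle corneas. Each luteolin library exceeded each vehicle library, but the gene did not pass (log2 fold change 0.96, SE 0.378, edgeR adjusted p = 0.0609). Only luteolin libraries reached the minimum count of 10, so Fgfr4 entered the test through that group. A filter of 1 CPM in 3 libraries removed Fgfr4. It passed in 1 of the 19 alternatives that tested it, the correction for gene length (1.15, edgeR adjusted p = 0.0310). That correction moved the median of all tested genes to 0.20.

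**Figure D2:**
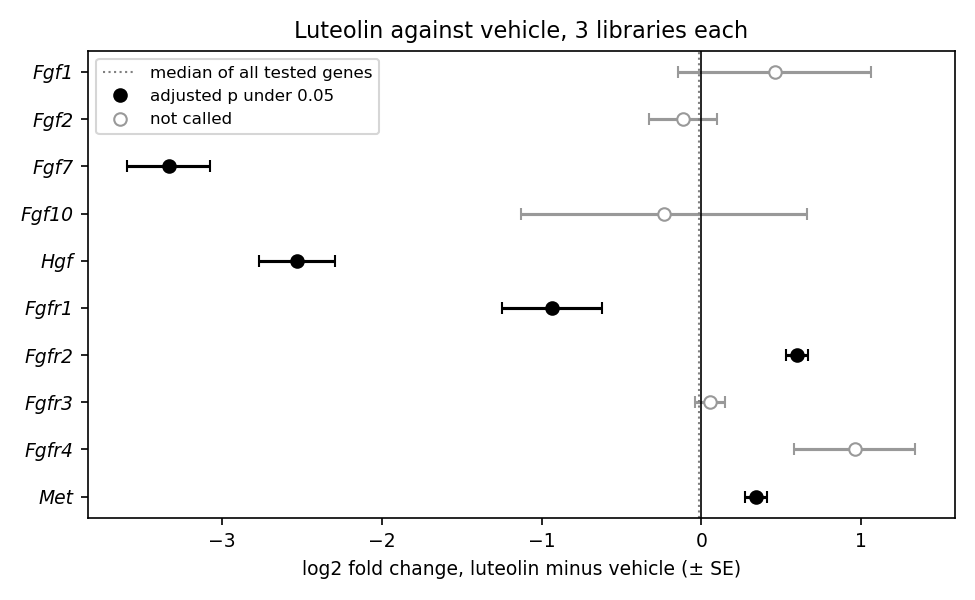
Log2 fold change of luteolin minus vehicle for the 10 genes with its standard error, from 3 libraries a group, with filled points where the adjusted p was under 0.05. Fgf7 (-3.33) and Hgf (-2.53) lie far left of 0, Fgfr1 (-0.93) has a wide error, and Fgfr2 (0.60) and Met (0.34) lie right of 0 with narrow errors.

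The order of receptor levels also differed between the groups. By mean TPM it was Fgfr2, Fgfr3, Met, Fgfr1 and Fgfr4 with luteolin and Fgfr3, Fgfr2, Met, Fgfr1 and Fgfr4 with vehicle, and the libraries of neighbouring genes did not overlap in either group. Fgfr2 held 49.5%, 49.8% and 49.7% of the summed TPM of the 4 FGF receptors in luteolin corneas, against 37.8%, 35.6% and 39.2% in vehicle corneas. Its share was 12.2 percentage points higher with luteolin and the groups were far apart. Fgfr1 held 8.26%, 7.36% and 4.42% in luteolin corneas, against 12.8%, 21.8% and 9.98% in vehicle corneas, 8.17 percentage points less on average. Fgfr3 held 43.3 ± 1.99% with luteolin and 47.5 ± 4.43% with vehicle (SD, n = 3 each), with groups that overlapped. A two-sided exact permutation test gave p = 0.1 for Fgfr1, Fgfr2 and Fgfr4, the smallest p that 3 against 3 libraries can give, and p = 0.3 for Fgfr3, or 0.133 and 0.3 adjusted over the 4 receptors, so this design cannot pass a threshold of 0.05. The summed TPM of the 4 receptors was 121 ± 3.37 with luteolin and 106 ± 3.501 with vehicle (SD, n = 3 each).

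**Figure D3:**
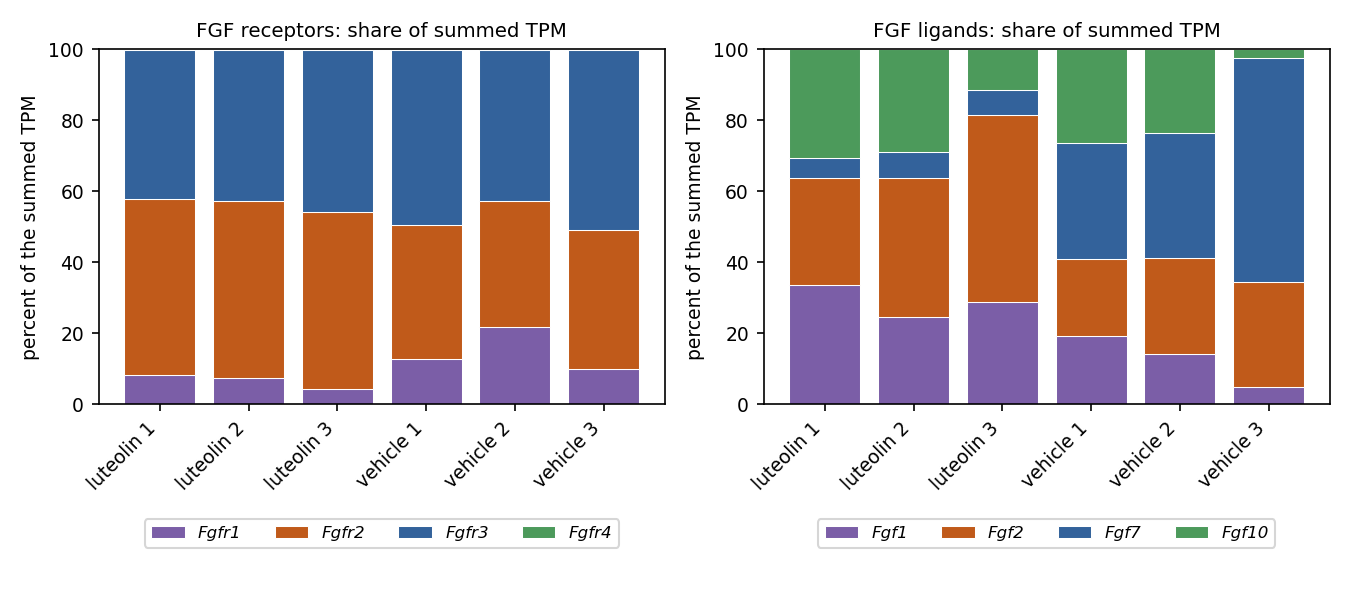
Share of the summed TPM held by each of the 4 FGF receptor genes (left) and the 4 FGF ligand genes (right) in each library, in percent. Fgfr2 takes close to 50% of receptor TPM in the 3 luteolin libraries and 35.6% to 39.2% in the vehicle libraries, and Fgf7 takes 5.48% to 7.20% of ligand TPM with luteolin and 32.5% to 63.0% with vehicle.

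Markers of cell types moved along with these genes. Of all tested genes 30.4% were called lower and 28.5% higher. In whole corneas fewer cells of a type and less RNA per cell cannot be told apart. All 10 macrophage and dendritic cell markers were lower, with a summed level of 36.2 to 47.6 CPM in luteolin corneas and 201 to 357 CPM in vehicle corneas. All 4 tested neutrophil markers were lower (1.23 to 2.38 CPM with luteolin, 32.5 to 48.3 CPM with vehicle). S100a8 had 0 counts in all 3 luteolin libraries, against 92, 75 and 208 in vehicle 1, 2 and 3. Ly6g also had 0 counts in all 3 luteolin libraries, but only 1 count in each vehicle library, and was not tested. Of 10 vessel markers 9 were lower (38.0 to 43.0 CPM with luteolin, 145 to 245 CPM with vehicle), and of 7 pericyte and smooth muscle markers 5 were lower and 1 higher (279 to 293 CPM with luteolin, 324 to 479 CPM with vehicle). The higher one, Notch3, carried most of that sum with luteolin, and the other 6 summed to 41.8 to 56.3 CPM in luteolin corneas and 195 to 341 CPM in vehicle corneas. Of 4 tested conjunctiva markers 3 were lower (1790 to 2772 CPM for the list with luteolin, 4187 to 4491 CPM with vehicle). Of 6 Schwann cell markers 3 were lower and 1 higher (248 to 253 CPM with luteolin, 143 to 173 CPM with vehicle), and the higher one, Mbp, carried most of the sum with luteolin. No other marker in these lists had 0 counts in every library of a group. The part of these cells in the lower Fgf7 and Hgf was not tested.

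The summed level of the stromal markers overlapped between the groups. Of 12 such markers, 3 (Cd34, Pdgfra and Ogn) were lower in every luteolin than every vehicle library, beside 33.7% of all tested genes. Of 12 keratocyte markers 4 were called lower (30.4% of all tested genes), 0 higher and 8 not called, with a median log2 fold change of -1.08. Their summed level was 2031 to 4618 CPM in luteolin corneas and 3494 to 9425 CPM in vehicle corneas. The number of lower keratocyte markers was 8 without vehicle 3 and 2 without luteolin 1, luteolin 3, vehicle 1 or vehicle 2, and without vehicle 2 there were also 2 higher. With the mean log2 CPM of this list as a covariate, the log2 fold change was -3.25 for Fgf7, -2.42 for Hgf and -0.40 for Fgfr1, each called (adjusted p = 0.000162, 0.000365 and 0.0274 by edgeR). The decrease of Fgfr1 was thus 1.32-fold in that fit, against 1.91-fold without the covariate. Of 10 corneal epithelium markers 9 were higher, at a summed 76002 to 78765 CPM in luteolin corneas and 43985 to 51909 CPM in vehicle corneas, with a median log2 fold change of 0.63, beside 0.60 for Fgfr2 and 0.34 for Met. Their part in the higher Fgfr2 and Met was not tested.

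Within each group Fgf10, Fgf1 and Fgfr1 shared their lowest library with the stromal and corneal endothelial marker means, but not always the order of the other libraries. The mean log2 CPM of the 6 corneal endothelium markers was 6.12, 5.78 and 4.92 in luteolin 1, 2 and 3 and 6.15, 6.35 and 5.38 in vehicle 1, 2 and 3. The keratocyte mean was 6.71, 6.90 and 5.76 in the luteolin libraries and 7.13, 8.15 and 6.44 in the vehicle libraries. Luteolin 3 and vehicle 3 were the lowest of their groups for both lists, for Fgf10, for Fgf1 and for Fgfr1. Skeletal muscle markers were likewise lowest in vehicle 3 within its group, but were highest in luteolin 3 within its group. They summed to 3.61, 3.05 and 60.4 CPM in luteolin 1, 2 and 3 and 95.7, 169 and 1.67 CPM in vehicle 1, 2 and 3. With the endothelium mean as a covariate, a fit added after seeing the data, the log2 fold change was 0.91 for Fgf10 (edgeR adjusted p = 0.112), 1.11 for Fgf1 (adjusted p = 0.0504) and -0.63 for Fgfr1 (adjusted p = 0.00983), while Fgf7 (-3.29) and Hgf (-2.47) stayed called. Without luteolin 3 and vehicle 3 together the 5 called genes were still called.

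**Figure D4:**
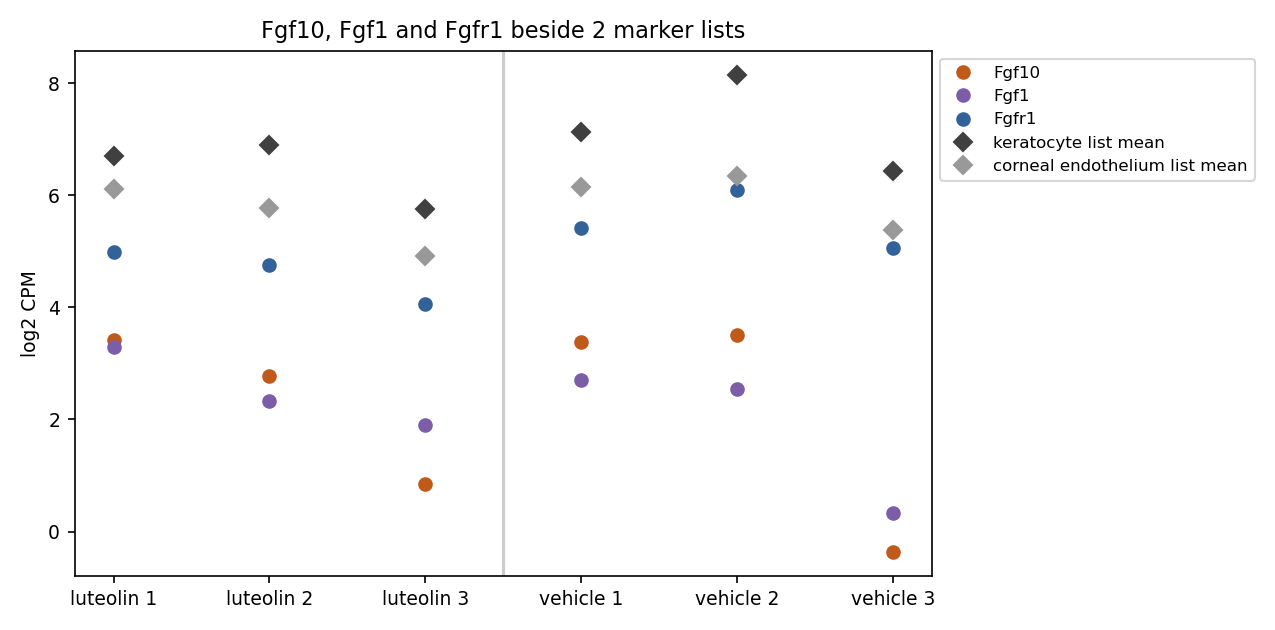
Log2 CPM of Fgf10, Fgf1 and Fgfr1 (circles) and the mean log2 CPM of the keratocyte and corneal endothelium marker lists (diamonds) in each library. In both groups the library numbered 3 has the lowest value of each of the 5 measures.

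The genes whose centred log2 CPM over the 6 libraries was closest to that of a member were found among 10758 genes with a mean of at least 5 CPM, by root mean square difference. Closest to Hgf were Mmp19 (0.0844), Slc7a6 (0.0890) and Dse (0.0907), and 59 genes lay within 0.25. Closest to Fgf7 were Cfp (0.173), B4galt5 (0.177) and Csf2rb (0.192), with 12 genes within 0.25. These neighbours of Hgf and Fgf7 were themselves lower with luteolin, by log2 fold changes of -2.33 (Mmp19) to -3.40 (Csf2rb). Cfp had 1.93, 2.34 and 1.54 CPM in luteolin corneas and passed the mean of 5 CPM through vehicle (15.1, 18.6 and 16.7 CPM). The distance includes the difference between groups, so closeness largely repeats the fold change and is not separate support. Closest to Fgfr2 were Def8 (0.0305), Stk26 (0.0315) and Pkp4 (0.0370), and closest to Met were Btbd10 (0.0185), Caml (0.0309) and Xrn1 (0.0312), with 3772 and 5589 genes within 0.25, so these 2 profiles are common in the table. Fgf10 and Fgf1 were added after their values were seen. Closest to Fgf10 were Atp1b1 (0.567), Chst5 (0.587) and the corneal endothelium marker Slc4a4 (0.684), and closest to Fgf1 were Spock2 (0.310), Atp1b1 (0.348) and Chst5 (0.349), with 0 genes within 0.25 of either.

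The rest of the pathway was read from 5 lists of other genes, by counts and medians. Each count stands beside 28.5% called higher and 30.4% called lower among all tested genes. Of 13 other genes of the FGF family, not all of which encode ligands of FGF receptors, 9 had too few reads to test. Of the other 4, 0 were called by edgeR, with 1 at an unadjusted p under 0.05. DESeq2 called 0 and limma on log2 FPKM called 1 lower. In 4 of 20 alternatives, leaving out vehicle 2 among them, 1 was called higher. Fgf9, an FGF of epithelia and nerves, had 1.22, 1.17 and 0.708 CPM in luteolin corneas, against 0.350, 0.761 and 0.417 CPM in vehicle corneas, with groups that overlapped by 1 library (edgeR adjusted p = 0.0702).

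Genes of FGF co-receptors and carriers changed in both directions. Of 15 tested, 4 were higher (28.5% of all tested genes), 7 lower (30.4%) and 4 not called. Their median log2 fold change was -0.49, beside -0.02 over all tested genes. Sdc4 and Sdc1, which encode syndecans, heparan sulfate proteoglycans of the cell surface, rose by 0.88 (SE 0.0774, edgeR adjusted p = 0.000149) and 0.59 on the log2 scale. The syndecan gene Sdc3 was lower (log2 fold change -1.94, edgeR adjusted p = 0.00163), with groups that did not overlap. Sdc2 (-0.70) was not called (edgeR adjusted p = 0.123). Sdc4 had 580, 539 and 543 CPM in luteolin corneas, against 274, 310 and 322 CPM in vehicle corneas. Hspg2, the gene of the basement membrane proteoglycan perlecan, fell to 31.8, 38.7 and 33.0 CPM in luteolin corneas, against 99.9, 121 and 98.9 CPM in vehicle corneas (log2 fold change -1.63, edgeR adjusted p = 7.08e-05). Flrt3, whose membrane protein is known to associate with FGF receptors, fell by 2.23 on the log2 scale. The genes of both extracellular sulfatases that trim heparan sulfate, Sulf1 (-2.21) and Sulf2 (-2.88), were lower too, with groups that did not overlap. Kl and Klb, which encode the klotho co-receptors, had too few reads to test.

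The list of HGF activation also holds the related ligand and receptor pair Mst1 and Mst1r. In it 5 of 8 tested genes were higher (28.5% of all tested genes), 2 lower (30.4%) and 1 not called. The median log2 fold change was 0.39. Spint2 and Spint1, which encode inhibitors of the proteases that activate HGF, rose by 0.81 (edgeR adjusted p = 0.000204) and 0.53 (edgeR adjusted p = 0.000613) on the log2 scale. Spint2 had 367, 383 and 370 CPM in luteolin corneas, against 191, 227 and 222 CPM in vehicle corneas. Mst1r, the gene of the MET-related receptor RON, and Mst1, the gene of its ligand, rose by 0.70 and 0.80. The 2 lower genes were Hgfac, which encodes the HGF activator protease, at 0.967, 1.95 and 1.74 CPM in luteolin corneas against 3.15, 2.17 and 4.35 CPM in vehicle corneas, and Plau, the urokinase gene (log2 fold change -0.31). The call of Hgfac ended on leaving out luteolin 1, luteolin 2, luteolin 3, vehicle 1 or vehicle 3, at edgeR adjusted p of 0.0508 to 0.108, as did that of Plau (0.0767 to 0.0949), and both ended with the correction for gene length. The calls of Hgfac and Plau also ended without luteolin 3 and vehicle 3 together. The groups of St14, the matriptase gene (0.26), overlapped in CPM, and its call ended in 10 of 20 alternatives. It ended without luteolin 2, luteolin 3, vehicle 1 or vehicle 2 (edgeR adjusted p 0.0860 to 0.139). The St14 call also ended with upper quartile factors, library sizes only, limma on both FPKM scales and both marker covariates.

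Among receptor adaptors and the RAS-ERK cascade 10 of 20 genes were higher (28.5% of all tested genes), 5 lower (30.4%) and 5 not called. Most changes were less than 0.7 on the log2 scale (median 0.16). Braf, a kinase gene of the cascade, rose by 0.61 (edgeR adjusted p = 0.000314), and Gab1, whose docking protein is recruited by MET, rose by 0.53 (edgeR adjusted p = 0.000352). Gab2, the paralog of Gab1, had 3.35, 3.05 and 2.19 CPM in luteolin corneas, against 11.2, 15.5 and 9.83 CPM in vehicle corneas, and fell by 2.09 on the log2 scale. Nras fell by 0.36 on the log2 scale, while Hras (-0.12) was not called (edgeR adjusted p = 0.166). Only Gab2 was still lower after the correction for gene length, which ended the calls of Nras, Grb2, Shc1 and Map2k2. Without luteolin 3 and vehicle 3 together 5 were higher and 2 lower. Gab1 had counts with decimals in 4 libraries.

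The 10 genes that are known as transcriptional targets or feedback inhibitors of FGF and ERK signalling went both ways. There were 3 higher, 4 lower and 3 not called (median log2 fold change -0.27). These counts are not far from the shares of all tested genes, 28.5% higher and 30.4% lower. Etv4, an ETS transcription factor gene known to respond to FGF, had 3.16, 3.12 and 4.63 CPM in luteolin corneas, against 27.1, 22.5 and 28.7 CPM in vehicle corneas. It fell by 2.84 on the log2 scale (SE 0.183, edgeR adjusted p = 6.02e-05), and its groups were far apart. Il17rd, the gene of the membrane inhibitor SEF, fell by 1.12. Spry1, a Sprouty inhibitor gene, had 62.0, 67.5 and 57.3 CPM in luteolin corneas, against 29.1, 46.6 and 34.6 CPM in vehicle corneas, and rose by 0.76 on the log2 scale (edgeR adjusted p = 0.00592), with decimals in the counts of 3 libraries. Dusp6, which encodes an ERK phosphatase often used as a readout of ERK activity, was not called (-0.03, edgeR adjusted p = 0.736). The number of higher genes in this list was 1 in 8 of 20 alternatives, where the calls of Spry2 (0.32) and Spred2 (0.26) ended: without luteolin 3, vehicle 1 or vehicle 3, without luteolin 3 and vehicle 3 together, with upper quartile factors, with library sizes only and with limma on both FPKM scales. Without luteolin 2 the number of lower genes was 2, where the calls of Etv5 (-0.38) and Spry4 (-1.32) ended.

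**Figure D5:**
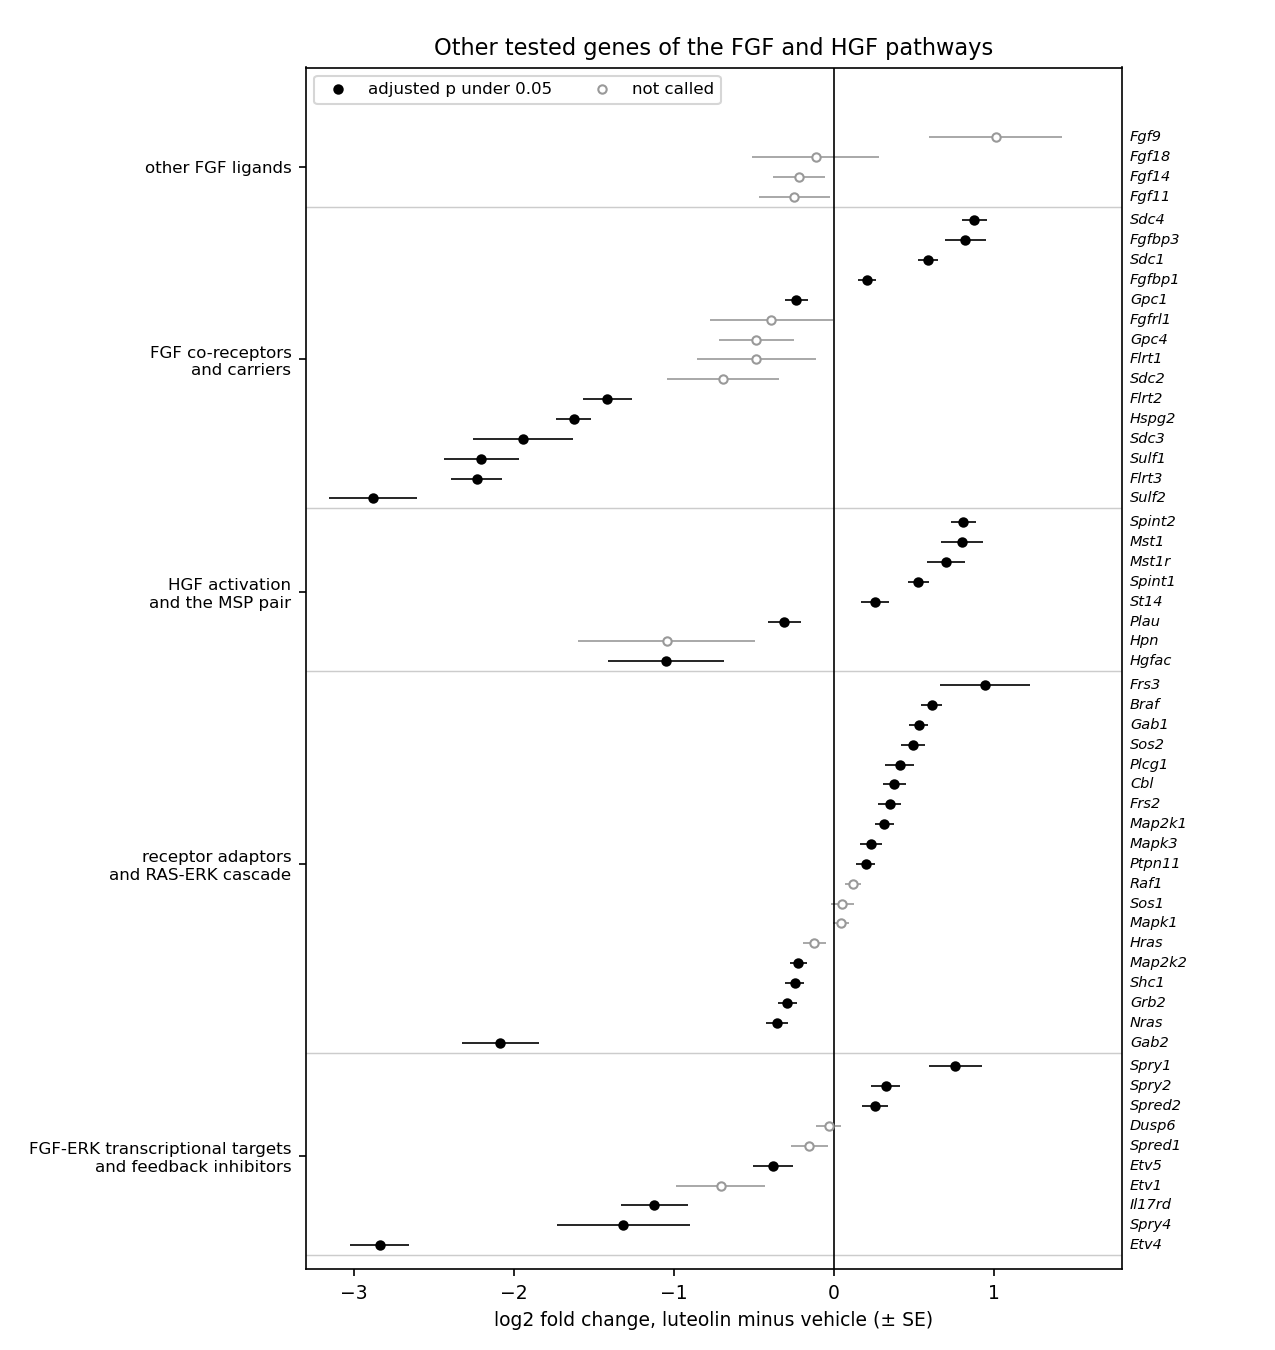
Log2 fold change of luteolin minus vehicle with its standard error for tested genes of the 5 related lists, with filled points where the adjusted p was under 0.05. Etv4 (-2.84), Sulf2 (-2.88) and Gab2 (-2.09) lie far left, and the genes called higher lie within 1 of 0.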

How the data were processed

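Whole corneas were flash frozen, RNA was extracted with Trizol and libraries were made with the Illumina TruSeq RNA kit, per the labels' protocols. Bowtie2 2.2.5, RSEM 1.2.12 and the mm9 build appear in the submitters' processing notes; for annotation and strand the sources used here give nothing. The authors deposited estimated counts (10.3% to 10.8% of values not whole within 0.001), FPKM and TPM per library, per the file headers, and a normalized count signal, not used, in which the deposited counts were rounded up and scaled by 1 factor per library. A total of 8 columns of group averages were not used.

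Rounded estimated counts went into edgeR 4.0.16 (R 4.3.3): filterByExpr (minimum count 10, minimum total 15), TMM factors, quasi-likelihood test of luteolin against vehicle without a block, and Benjamini-Hochberg over all 13838 tested genes. The SE is the log2 fold change divided by the square root of F. Log2 CPM for profiles used a prior count of 2. Same-numbered libraries were not treated as pairs, because the labels do not say that they are. Their correlations of deviations from group means over all tested genes were -0.15, 0.03 and 0.01. No pair of libraries in a group agreed within sampling noise (chi-square over its degrees of freedom, 6.59 to 31.7). The code was tested on simulated data.

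Genes named were all 10 members, and from each related list the 2 higher and the 2 lower genes with the smallest p. Sdc2, Sdc3, Sulf1, Sulf2, Mst1, Mst1r, St14, Fgf9, Kl, Klb, Hras, Grb2, Shc1, Map2k2, Dusp6, Spred2, Etv5, Spry4, Cd34, Pdgfra, Ogn, Notch3 and Mbp were named after their values were seen. The values of 1 further gene, counted in the lists, are not reported here. Members and lists were chosen with earlier results of these data known. Alternatives were DESeq2 1.42.0, limma 3.58.1 on log2 FPKM (1 or 0.1 added), other factors, filters, robust dispersion, a replicate block, a loess correction for gene length, marker covariates and leaving out libraries.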

Additional observations from a re-analysis of the deposited data

How the results depend on the processing

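Across 20 alternatives, 2 of them added after seeing the data, the calls of Fgf7, Hgf, Fgfr2 and Met kept their direction and stayed past the threshold. Leaving out any 1 library gave 2 higher and 2 to 3 lower members and 6795 to 8493 called genes in all. With the replicate block there were 2 higher and 3 lower members and 7934 called genes. Whether the replicate numbers pair the samples is not stated. In that fit the log2 fold change was -0.92 for Fgfr1 (SE 0.176, edgeR adjusted p = 0.00702). It was -0.02 for Fgf10 (SE 0.364) and 0.59 for Fgf1 (SE 0.351), both not called. Of the unpassed members, Fgfr3 turned to -0.040 with upper quartile factors, -0.059 with library sizes only, -0.053 and -0.054 with limma on both FPKM scales and -0.072 with the keratocyte covariate. Fgf2 turned to 0.21 and 0.069, and Fgf10 to 1.22 and 0.91, with the keratocyte and the endothelium covariate. Without 1 library, Fgf1 ranged over -0.069 to 0.82, Fgf2 over -0.28 to 0.11, Fgf10 over -0.83 to 0.21 and Fgfr3 over -0.041 to 0.099. The cause was not tested. Lower genes made up 51.6% of all calls with TMM, 61.9% with upper quartile factors, 63.6% with library sizes only, 65.1% and 65.3% with limma on FPKM with the larger and the smaller pseudocount, and 32.5% with the gene length correction. For the 40 called genes of the related lists, 698 of 800 results under the alternatives stayed past the threshold in the same direction, 102 lost the call and 0 reversed. Counts of 4 to 16 limit the precision of Fgfr4, and of Fgf7 and Hgf under luteolin.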
